A study of Homo sapiens with 18 samples.

Results

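Gene expression was compared between the untreated HCC1937-OE-BRCA1 and the untreated HCC1937-EV libraries, which are 6 of the 18 RNA-seq libraries of the study, 3 for each cell line. HCC1937 is a breast carcinoma cell line that carries a truncating BRCA1 mutation. The HCC1937-EV cells hold an empty vector, and the HCC1937-OE-BRCA1 cells hold a vector for wild-type BRCA1 beside the truncated copy, so that the comparison addresses what the untreated cell lines differ in before the PARP inhibitor olaparib is given at 12 h or 24 h in the other libraries. Both groups were chosen by the cell line and the time of 0 h in their titles. The labels name olaparib for the 0 h libraries too and call the HCC1937-EV genotype wild type, while the study describes these libraries as untreated and BRCA1-mutated. Each group is 1 cell line, and no label says that the 3 libraries of a line came from separate cultures. The p-values thus measure the spread between libraries of the same line and time, estimated over all 18 libraries, which may be technical. The introduced BRCA1 and any other difference between the lines cannot be told apart.

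BRCA1 repairs broken DNA by homologous recombination and helps breast epithelium to take on its luminal and basal fates. Triple-negative breast carcinoma lines usually keep an epithelial programme of cadherin junctions and keratin filaments, and BRCA1-mutated lines are often of the basal kind. Cells of this kind can also run interferon and inflammatory programmes without infection, through sensors of misplaced nucleic acids.

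The untreated libraries held 15895450 to 16732025 counts each. Mitochondrial DNA gave 7.10% to 8.33% of the counts in the EV-labelled and 4.99% to 5.66% in the OE-labelled libraries, with no overlap, and its part in the results was not tested. Levels are given as CPM, a gene's count scaled to the TMM-adjusted size of its library. On the log2 scale of CPM, libraries of the same line correlated with r of 0.979 to 0.989 across genes and libraries of different lines with r of 0.710 to 0.717, and genes are not independent replicates. The EV-labelled libraries had counts on 22656 to 23161 genes and the OE-labelled libraries on 24815 to 25127.

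The genes that check the labels were read first. BRCA1 (chromosome 17) stood at 126, 111 and 117 CPM in the EV-labelled libraries and at 166, 122 and 127 CPM in the OE-labelled libraries. The groups overlapped, and the difference of 0.24 ± 0.11 (SE) on the log2 scale was not called (edgeR's adjusted p = 0.0654). It was called in 6 of the alternatives tried, among them without OE-labelled replicate 2, at a log2 fold change of 0.32, and without OE-labelled replicate 3, at 0.29. Without OE-labelled replicate 1 it was not called, at a log2 fold change of 0.088. Reads of the truncated and of the introduced copy are counted together, and the labelled overexpression was not visible as a called difference in the untreated libraries. Markers of epithelial cells, whose values follow with the lineage genes, were mixed in the EV-labelled libraries. KRT8, KRT18 and DSP were abundant in both lines. The luminal epithelial genes summed to 3760 to 3915 CPM in the EV-labelled and 7695 to 9768 CPM in the OE-labelled libraries. Others go against the EV label: CDH1, EPCAM, KRT5 and TP63 were each under 1 CPM in every EV-labelled library, although HCC1937 is known as an epithelial line of the basal kind. The libraries are therefore named by their labels throughout. Unless 12 h or 24 h is stated, libraries labelled EV or OE are the 3 untreated ones of that line, also where no count is reported. RB1, the retinoblastoma gene, stood at 47.3 ± 5.33 CPM (SD, n = 3) against 35.6 ± 7.01 CPM, with overlapping libraries and an adjusted p of 0.0364 by edgeR. That call was lost in 9 of the alternatives tried, among them without EV-labelled replicate 1 (log2 fold change -0.38), EV-labelled replicate 3 (-0.36), OE-labelled replicate 2 (-0.33) or OE-labelled replicate 3 (-0.33). IRF3, the transcription factor that switches on interferon genes, stood at 75.8 ± 3.17 CPM against 162 ± 40.3 CPM and was 2.14-fold higher in the OE-labelled libraries (adjusted p = 4.8e-06).

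Of 18335 genes tested, 13330 were called at an adjusted p under 0.05 by edgeR's quasi-likelihood test, which is 72.7%. Higher in the OE-labelled libraries were 7232 genes (39.4%) and lower 6098 (33.3%). Past 2-fold, 4979 genes were higher (27.2% of those tested) and 3617 lower (19.7%), and past 16-fold 1999 were higher and 699 lower. The median log2 fold change of all genes tested was 0.11, and the median size of the change without its sign was 0.96. These shares are the background of every gene list that follows. In bulk RNA, fewer cells of a type and less RNA per cell cannot be told apart.

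**Figure D1:**
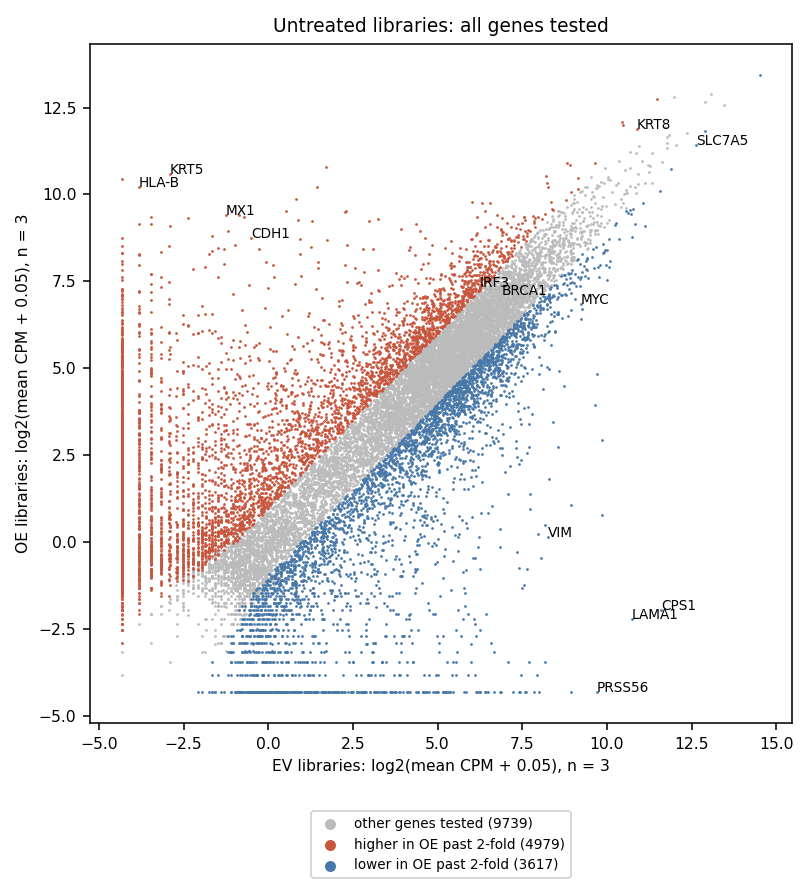
Each point is 1 of the 18335 genes tested, with the mean level of the 3 EV-labelled libraries on the x axis and of the 3 OE-labelled libraries on the y axis, both as log2(mean CPM + 0.05). The 4979 red genes were higher and the 3617 blue genes lower in the OE-labelled libraries past 2-fold, and the columns of points at the left and bottom edges are genes with few or no counts in one line.

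Among protein-coding genes of at least 20 CPM in the higher line, the 12 with the largest fold higher in the OE-labelled libraries had at most 1 count in the 3 EV-labelled libraries together. Among them were CASP14, KLK10, HLA-B, OAT, OAS2, ESRP1, EEF1A2, PKP1, DSC3, KLK5 and CPVL. CASP14, a caspase of the cornifying epidermis, had no count in any library labelled EV and 454, 391 and 454 CPM in the OE-labelled libraries, at least 6999.6-fold higher (adjusted p = 1.25e-16). KLK10 and KLK5 encode secreted kallikrein proteases of epithelia, and KLK10 was at least 5944-fold higher at 368 ± 76.8 CPM. DSC3 and PKP1 belong to desmosomes, the rivets between epithelial cells, and were at least 3027-fold and at least 3648-fold higher, at 187 ± 41.9 and 226 ± 18.1 CPM. ESRP1, the splicing regulator of epithelia, was at least 4395-fold higher. EEF1A2, an elongation factor of translation, was at least 4096-fold higher, and CPVL, a carboxypeptidase, at least 2509-fold higher.

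Among the 12 genes with the largest fold the other way were PRSS56, ECEL1, PIEZO2, MAGEA3, PAGE1, CTAG2, MAGEA6, ZNF831, GAGE2A and CPS1. Of these, all but CPS1 had no count in the 3 OE-labelled libraries. PRSS56, a serine protease, stood at 737, 879 and 875 CPM in the EV-labelled libraries, at least 13378-fold above the OE-labelled ones. ECEL1, a neural endopeptidase, stood at 488 ± 18.2 CPM (at least 7864-fold higher in the EV-labelled libraries). PIEZO2, the channel of touch receptors, stood at 257 ± 7.95 CPM (at least 4137-fold higher). ZNF831, a zinc finger gene, was at least 1879-fold higher.

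By difference of level, with mitochondrial DNA left aside, the 10 genes highest in the OE-labelled libraries included KRT8, PLEC, RPL8, KRT17, KRT5, KRT7, LMNA, AGRN and HLA-B. Most of them encode filaments of the cytoskeleton and the nucleus: the keratins, the keratin linker plectin (PLEC, 1391 against 4328 CPM in EV- against OE-labelled libraries) and lamin A (LMNA, 482 against 1827 CPM). AGRN encodes agrin of basement membranes (294 against 1489 CPM). RPL8, of the large ribosomal subunit, stood at 1437 against 4097 CPM. The 10 nuclear genes of the largest difference the other way were SLC7A5, CPS1, EEF2, LAMA1, SERBP1, RPL4, EIF4G2, RPSA, ATP5F1B and RPL6. Apart from CPS1, LAMA1, SLC7A5 and ATP5F1B, they serve translation. EEF2, the elongation factor that moves the ribosome along, stood at 3842 ± 119.5 CPM against 1699 ± 276 CPM, 2.26-fold lower in the OE-labelled libraries (adjusted p = 7.28e-09). SERBP1, an mRNA-binding protein of ribosomes, stood at 2216 against 549 CPM. EIF4G2, an initiation factor, stood at 1811 against 567 CPM, and RPSA, of the small ribosomal subunit, at 1725 against 441 CPM. Of 83 cytosolic ribosomal protein genes, 11 were called higher (3 past 2-fold) and 39 lower (15 past 2-fold), with a median log2 fold change of -0.36. They summed to 52389, 53726 and 55348 CPM in the EV-labelled and to 34917, 52409 and 41112 CPM in the OE-labelled libraries, where replicate 2 stood apart from the other two and lay within the EV-labelled range. Without OE-labelled replicate 2, 9 were called higher and 46 lower, 21 of them past 2-fold, a check added after the data were seen. Ribosomal protein genes have many processed copies, and how shared reads were counted is not given in the sources used here.

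Genes of the epithelial state differed widely between the lines. Of the epithelial junction and identity genes, 37 of 43 tested members were called higher in the OE-labelled libraries (35 past 2-fold) and 3 lower (0 past 2-fold), with a median log2 fold change of 6.48. CDH1, the E-cadherin of adherens junctions, stood at 0.435, 0.6799 and 0.863 CPM in the EV-labelled and at 473, 388 and 440.1 CPM in the OE-labelled libraries, 657-fold higher (adjusted p = 6.67e-20). EPCAM, an adhesion molecule of epithelia, stood at 0, 0 and 0.0617 CPM against 347, 331 and 252 CPM. The libraries of the lines did not overlap for either gene. Of the claudins of tight junctions, CLDN1 was at least 2440.1-fold higher and CLDN4 106-fold higher. The transcription factors GRHL2 (0.0824 against 116 CPM) and OVOL2 (0 against 17.1 CPM), which hold epithelial identity, were called higher too, as were the surface protease ST14 (4.72 against 719 CPM) and its inhibitors SPINT1 (0.309 against 198 CPM) and SPINT2 (1.79 against 609.9 CPM). The 3 members called lower were DSP, CGN and MYO5B, none past 2-fold. DSP, the desmoplakin that ties keratins to desmosomes, stood at 792 ± 21.7 CPM against 595 ± 95.5 CPM.

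Of the basal epithelial genes, 21 of 25 tested members were called higher in the OE-labelled libraries (20 past 2-fold) and 0 lower (0 past 2-fold), with a median log2 fold change of 7.26 (6.11 with genes without a count set at their bound). KRT5, the keratin of basal cells, stood at 0.124, 0 and 0.123 CPM in the EV-labelled and at 1267, 1694 and 1688 CPM in the OE-labelled libraries (adjusted p = 2.53e-20). Its partner KRT14 stood at 0, 0.124 and 0 CPM against 20.997, 39.3 and 31.7 CPM. TP63, the master regulator of basal cells, stood at 0.124, 0 and 0 CPM against 44.3, 37.9 and 46.03 CPM. All OE-labelled libraries lay above all EV-labelled ones for the 3 genes. KRT17 stood at 3.22 against 1764 CPM, KRT16 at 1.403 against 734 CPM, P-cadherin (CDH3) at 0.0824 against 367 CPM and the hemidesmosome integrin ITGB4 at 1.88 against 313 CPM. Of the luminal epithelial genes, 19 of 21 tested members were called higher in the OE-labelled libraries (15 past 2-fold) and 1 lower (0 past 2-fold), with a median log2 fold change of 2.77. The keratins of simple epithelia were abundant in both lines, KRT8 at 1886 ± 67.8 against 3799 ± 573 CPM and KRT18 at 875 ± 7.76 against 1208 ± 175 CPM. GATA3, the factor of luminal breast cells, stood at 2.39 against 55.7 CPM, and ESR1, the oestrogen receptor, at 2.25 against 13.999 CPM. The one luminal gene called lower was XBP1, a factor of secretory cells, at 141 against 95.5 CPM.

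**Figure D2:**
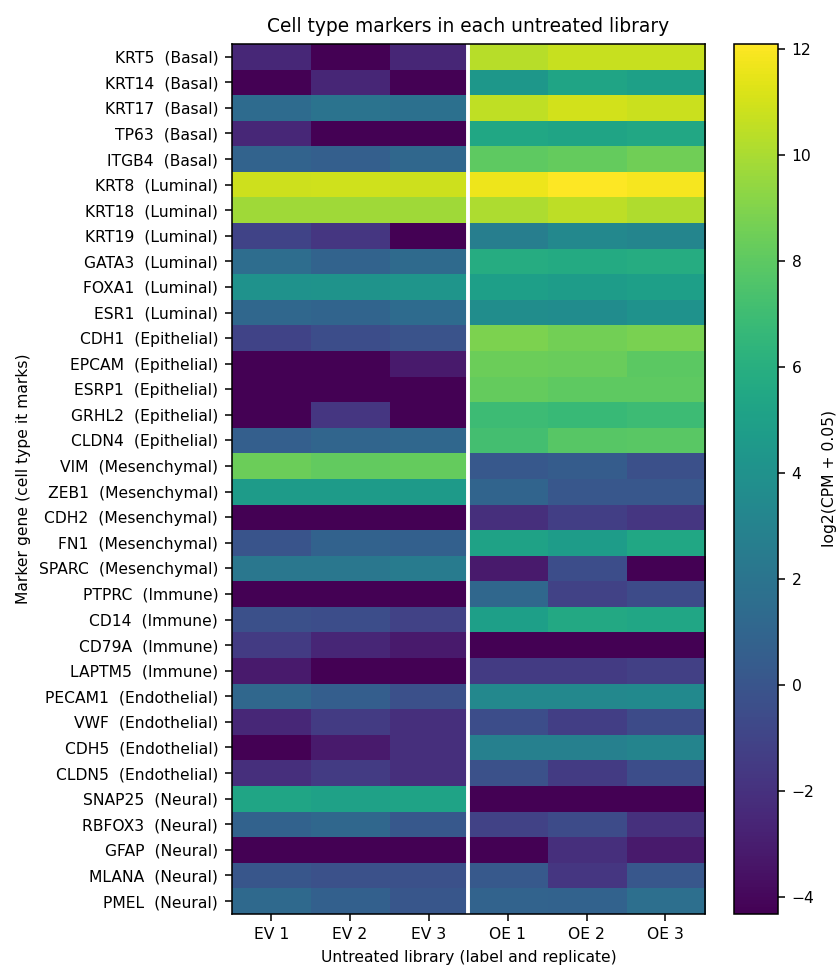
Rows are marker genes of 7 cell types and columns the 6 untreated libraries, with colour giving log2(CPM + 0.05). Basal and epithelial markers such as KRT5 and EPCAM are dark in the EV-labelled and bright in the OE-labelled libraries, VIM and SNAP25 the other way round, and KRT8 and KRT18 are bright in all 6.

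Mesenchymal genes were split: 14 of 33 tested members were called higher in the OE-labelled libraries (13 past 2-fold) and 18 lower (15 past 2-fold). Their median log2 fold change was -0.48 and their mean 0.67. VIM, the vimentin of mesenchymal filaments, stood at 335, 287 and 296 CPM in the EV-labelled and at 1.11, 1.29 and 0.756 CPM in the OE-labelled libraries, 291-fold lower in the latter (adjusted p = 2.29e-18). The repressors of E-cadherin ZEB1 (25.3 against 1.34 CPM), ZEB2 (6.64 against 0.497 CPM), SNAI1 (9.24 against 4.52 CPM) and SNAI2 (21.9 against 9.95 CPM) were lower as well. Matrix genes went both ways, with COL1A1 at 98.6 against 7.45 CPM and fibronectin (FN1) at 1.42 against 35.7 CPM. FSTL1, a secreted glycoprotein, stood at 0.783 against 347 CPM and the matrix protein TGFBI at 20.02 against 191 CPM. The N-cadherin gene CDH2 was at or near 0 in both lines.

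Of the breast lineage factors, 17 of 23 tested members were called higher in the OE-labelled libraries (15 past 2-fold) and 4 lower (3 past 2-fold), with a median log2 fold change of 4.54 (4.48 with genes without a count set at their bound). SOX9, a factor of progenitor cells, stood at 0.0621, 0 and 0 CPM against 158, 128 and 159 CPM. The epithelial ETS factors EHF (0 against 119 CPM) and ELF3 (51.02 against 349 CPM) and the TEAD partner VGLL1 (0 against 136 CPM) were higher. TFAP2A (232 against 62.4 CPM), FOXC1 (132 against 66.6 CPM), TBX3 (35.6 against 5.92 CPM) and MSX1 (25.6 against 1.67 CPM) were lower. HOX genes, which record position along the body axis, differed by cluster. Of the HOXC and HOXD genes, 0 of 13 tested members were called higher in the OE-labelled libraries (0 past 2-fold) and 11 lower (9 past 2-fold), with a median log2 fold change of -1.45. HOXD10 stood at 33.7, 34.7 and 30.2 CPM in the EV-labelled and 0.123, 0.0616 and 0.06298 CPM in the OE-labelled libraries. Of the HOXA and HOXB genes, 7 of 18 tested members were called higher in the OE-labelled libraries (6 past 2-fold) and 10 lower (8 past 2-fold), with a median of -0.84, HOXB6 at 20.002 against 0.535 CPM and HOXA10 at 9.34 against 22.7 CPM. Factors of other tissues were mostly low. Of them, 19 of 29 tested members were called higher in the OE-labelled libraries (14 past 2-fold) and 8 lower (7 past 2-fold) (median 0.998). They summed to 566, 534 and 533 CPM in the EV-labelled and to 587, 845 and 740 CPM in the OE-labelled libraries. The lower ones included EYA4 of ear and muscle at 71.9 against 0 CPM and FOXL2 of the ovary at 24.6 against 1.796 CPM. The more numerous higher ones are not named here.

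Keratinocyte differentiation genes build the cornified surface of skin. Of them, 35 of 37 tested members were called higher in the OE-labelled libraries (32 past 2-fold) and 1 lower (1 past 2-fold), with a median log2 fold change of 6.24 (4.04 with genes without a count set at their bound). S100A9, a calcium-binding alarmin, stood at 0, 0.0618 and 0.123 CPM against 123, 196 and 164 CPM. CALML5, a calmodulin of the epidermis, had no count in any library labelled EV and stood at 142 ± 49.9 CPM in those labelled OE, at least 2290.2-fold higher. EMP1, a membrane protein of squamous cells, stood at 24.7 ± 1.31 against 434 ± 39.6 CPM, and PPL, the periplakin of the cornified envelope, at 4.74 ± 1.26 against 248 ± 35.9 CPM. Late products such as involucrin (IVL, 0 against 1.01 CPM) and filaggrin (FLG, 0 against 0.993 CPM) stayed near 1 CPM. The AP-1 motif TGACTCA, read on both strands, was found in 11 of the 40 promoters of this list that the RefSeq table holds (27.5%), against 4.89% of all 27195 promoters of the same 300 bases. Outside the list, 32.0% of 412 tested genes with the motif were higher past 2-fold, against 24.8% of 11805 without it, and 20.6% against 19.3% were lower. Windows around the match are shown for 3 members with the motif, to show where it lies. They were taken by OE-labelled level from members called higher past 2-fold, not all of which were eligible. EMP1 is read from chr12:13196501-13196607 on the plus strand, SCEL, which encodes sciellin of the cornified envelope, from chr13:77535607-77535713 on the plus strand, and SBSN, the suprabasin of suprabasal cells, from chr19:35528326-35528432 on the minus strand (GRCh38.p14, RefSeq). The capitals mark the motif or its reverse complement.
EMP1: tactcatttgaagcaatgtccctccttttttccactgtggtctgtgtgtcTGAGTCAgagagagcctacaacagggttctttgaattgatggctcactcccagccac
SCEL: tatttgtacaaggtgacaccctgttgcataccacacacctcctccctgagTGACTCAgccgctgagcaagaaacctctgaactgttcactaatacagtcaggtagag
SBSN: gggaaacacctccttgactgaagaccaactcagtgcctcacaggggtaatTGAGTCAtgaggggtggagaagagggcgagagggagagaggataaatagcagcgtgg

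Markers of other cell types had counts in both lines, and the members named here hold only part of the sums. The immune markers summed to 10.6 to 13.01 CPM in the EV-labelled and 53.6 to 75.8 CPM in the OE-labelled libraries; 4 of 7 tested were called higher and 2 lower. CD14 stood at 0.619 against 40.6 CPM, CSF1R at 9.03 against 0.3704 CPM and PTPRC, which marks all leukocytes, at 0 against 1.09 CPM, while CD79A and LAPTM5 were under 1 CPM in both. The endothelial markers summed to 107 to 119 CPM in the EV-labelled and 115 to 141 CPM in the OE-labelled libraries, with PECAM1 at 1.49 against 10.5 CPM, ERG at 26.7 against 0.0205 CPM and VWF under 1 CPM in both, and 8 of 10 tested were called higher and 1 lower. The neural and melanocyte markers summed to 174 to 177 CPM in the EV-labelled and 79.2 to 92.1 CPM in the OE-labelled libraries, with 4 of 11 tested called higher and 4 lower, a median log2 fold change of 0.32 and a mean of -0.78. SNAP25, of the synaptic release machinery, stood at 40.6, 33.9 and 37.4 CPM in the EV-labelled libraries and had no count in any library labelled OE, while GFAP was near 0 in both. The part of these markers in the other results was not tested. Cancer-testis genes, which are silent in most adult tissues, summed to 947 to 1076 CPM in the EV-labelled and 4.31 to 7.21 CPM in the OE-labelled libraries. No tested member was called higher and 10 of 12 were called lower, all past 2-fold, with a median log2 fold change of -13.24 (-10.24 with genes without a count set at their bound). MAGEA3 stood at 185, 203 and 202 CPM, PAGE1 at 186, 196 and 197 CPM and CTAG2 at 163, 176 and 175 CPM in the EV-labelled libraries, and none of the 3 had a count in those labelled OE. MAGEA3 and MAGEA6 are near-identical copies, so their shares of the reads are uncertain.

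Interferon-stimulated genes are switched on by the factor complex ISGF3, which binds the interferon-stimulated response element (ISRE) in their promoters. The core of this element, GAAA and a second GAAA spaced by 2 bases, was found on either strand in 43 of the 74 list promoters held by the RefSeq table (58.1%), against 3.65% of all 27195 promoters. It was found in 2.5% of the promoters of the keratinocyte list and in 7.89% of those of the NF-kB list. Outside the list, 30.7% of 300 tested genes with the core were higher past 2-fold, against 24.6% of 11871 without it, and 14.7% against 19.5% were lower. Shown are 5 members with the core, each with up to 50 bases on either side of the match nearest to the gene start. They were taken by OE-labelled level from members called higher past 2-fold, not all of which were eligible. MX1, a GTPase against viruses, is read from chr21:41420519-41420607 on the plus strand, BST2, the tetherin that holds budding virus, from chr19:17405695-17405804 on the minus strand, and IFI6, which restricts flaviviruses, from chr1:27672226-27672335 on the minus strand (GRCh38.p14, RefSeq). OAS3, a synthase of the second messenger that activates RNase L, is read from chr12:112938412-112938521 on the plus strand, and PLSCR1, a membrane protein induced by interferon, from chr3:146544627-146544736 on the minus strand. The capitals mark the core on the gene's strand, and overlapping cores run together.
MX1: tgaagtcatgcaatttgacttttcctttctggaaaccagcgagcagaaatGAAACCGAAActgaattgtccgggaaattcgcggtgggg
BST2: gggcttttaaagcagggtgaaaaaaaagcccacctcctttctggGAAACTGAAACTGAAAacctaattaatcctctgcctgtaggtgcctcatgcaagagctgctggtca
IFI6: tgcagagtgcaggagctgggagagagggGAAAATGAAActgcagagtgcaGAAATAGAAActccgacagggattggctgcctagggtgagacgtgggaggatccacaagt
OAS3: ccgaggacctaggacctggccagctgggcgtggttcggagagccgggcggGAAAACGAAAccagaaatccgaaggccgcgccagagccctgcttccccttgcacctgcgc
PLSCR1: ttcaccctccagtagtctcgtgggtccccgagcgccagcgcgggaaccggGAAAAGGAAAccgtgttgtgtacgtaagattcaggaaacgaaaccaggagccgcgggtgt

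Of the interferon-stimulated genes, 87 of 97 tested members were called higher in the OE-labelled libraries (82 past 2-fold) and 6 lower (1 past 2-fold), with a median log2 fold change of 3.72 (3.66 with genes without a count set at their bound). MX1 stood at 0.373, 0.185 and 0.555 CPM in the EV-labelled and at 652, 699 and 673 CPM in the OE-labelled libraries, 1818-fold higher (adjusted p = 1.29e-20). IFI6 stood at 1.68, 2.97 and 2.53 CPM against 364, 807 and 642 CPM, and ISG15, the ubiquitin-like modifier, at 4.04, 5.69 and 5.12 CPM against 294, 464 and 354 CPM. In all 3 the groups were far apart. OAS2 had no count in any library labelled EV and was at least 5107-fold higher, whereas its neighbour OAS3 already stood at 93.8 ± 4.16 CPM there against 571 ± 96.3 CPM. BST2 (187 ± 6.65 against 658 ± 108 CPM) and PLSCR1 (22.3 ± 0.943 against 490.3 ± 42.99 CPM) were likewise present in both. RSAD2 (at least 859.5-fold), CMPK2 (at least 1245-fold), XAF1 (at least 745-fold) and GBP4 (at least 378-fold) had no count labelled EV. Among the members called lower, IFITM2 alone passed 2-fold, at 45.3 ± 3.502 against 1.096 ± 0.158 CPM. Its near copies IFITM1 (10.1 against 87.5 CPM) and IFITM3 (119 against 223 CPM) were higher, and how reads of the 3 were shared out is uncertain.

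The genes that make and read the interferon signal had smaller differences at the median. Of the interferon pathway and nucleic acid sensor genes, 30 of 46 tested members were called higher in the OE-labelled libraries (24 past 2-fold) and 7 lower (3 past 2-fold), with a median log2 fold change of 1.16. Among ligands, IFNL1 had no count in any library labelled EV and stood at 1.601, 2.03 and 2.39 CPM in the OE-labelled libraries. IFNLR1, the receptor chain for lambda interferons, had no count in any library labelled EV and stood at 9.496 ± 0.4796 CPM in the others. IFNAR1, of the receptor for type I interferons, stood at 58.6 ± 1.32 against 49.8 ± 8.896 CPM and was not called. The kinase JAK1, which relays the signal of the receptors, was 5.92-fold lower (618 ± 22.1 against 104 ± 13.4 CPM). Among the sensors, IFIH1, which binds double-stranded RNA, stood at 7.86 against 125 CPM and CGAS, which binds DNA, at 25.2 against 78.7 CPM. MAVS (153 against 178 CPM) and STING1 (14.5 against 15.7 CPM), the adaptors of the 2 routes, were not called.

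Of the MHC and antigen presentation genes, 21 of 26 tested members were called higher in the OE-labelled libraries (21 past 2-fold) and 1 lower (1 past 2-fold), with a median log2 fold change of 2.40. HLA-B stood at 0, 0.0618 and 0 CPM in the EV-labelled and 1000.1, 1389 and 1194 CPM in the OE-labelled libraries. HLA-C stood at 0.145 ± 0.0951 against 637 ± 124 CPM. HLA class I genes are polymorphic and alike, so alleles that differ from the reference can lose reads, and these levels are uncertain. B2M, the invariant chain of class I molecules, stood at 85.3, 81.7 and 82.03 CPM against 409.8, 412 and 278 CPM, 4.42-fold higher. HLA-E, a class I molecule seen by natural killer cells, stood at 21.1 against 27.6 CPM and was not called. ERAP1, which trims peptides, was the member called lower (41.5 against 18.5 CPM).

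Of the NF-kB targets and inflammatory cytokines, 33 of 39 tested members were called higher in the OE-labelled libraries (28 past 2-fold) and 2 lower (1 past 2-fold), with a median log2 fold change of 2.77 (2.05 with genes without a count set at their bound). LCN2, an iron-trapping lipocalin, stood at 1.62, 1.61 and 1.91 CPM against 778, 1102 and 949 CPM, 551-fold higher (adjusted p = 1.53e-19). C3, the central complement protein, stood at 8.63, 11.2 and 8.39 CPM against 569, 580.3 and 727 CPM, 66.5-fold higher. CSF1, the growth factor of macrophages, had no count in any library labelled EV and was at least 1109-fold higher. Many cytokines of the list stayed low where they were called, such as IL6 (0 against 1.82 CPM) and CXCL8 (0 against 0.928 CPM). PTGS2, the inducible cyclooxygenase, was lower (2.001 against 0.0621 CPM), as was NFKB2 (75.7 against 53.3 CPM). A kappaB site, the motif that NF-kB binds, was found on either strand in 9 of 38 list promoters (23.7%), against 0.162% of all promoters. Outside the list, 17 tested genes held it, of which 6 were higher and 1 lower past 2-fold. Windows around it are shown for NFKB1, a subunit of NF-kB itself, from chr4:102501260-102501369 on the plus strand, NFKBIZ, a nuclear regulator, from chr3:101827740-101827826 on the plus strand, and CXCL1, a chemokine for neutrophils, from chr4:73869264-73869373 on the plus strand (GRCh38.p14, RefSeq). They were taken by OE-labelled level from members with the motif that were called higher past 2-fold. Members called lower were not eligible, and neither was every higher one. The capitals mark the motif.
NFKB1: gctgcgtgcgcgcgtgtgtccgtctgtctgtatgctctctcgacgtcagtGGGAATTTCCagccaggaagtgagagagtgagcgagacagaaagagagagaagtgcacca
NFKBIZ: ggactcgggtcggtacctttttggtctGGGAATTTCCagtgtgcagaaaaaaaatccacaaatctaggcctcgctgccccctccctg
CXCL1: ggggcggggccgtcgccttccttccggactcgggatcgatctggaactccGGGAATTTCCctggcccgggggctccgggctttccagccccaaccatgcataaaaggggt

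Growth factor receptors and ligands had called members on both sides. Of the receptor tyrosine kinases, 23 of 34 tested members were called higher in the OE-labelled libraries (19 past 2-fold) and 9 lower (8 past 2-fold), with a median log2 fold change of 1.57. PTK7, a receptor of planar polarity, stood at 0.373, 0.247 and 0.432 CPM against 229, 249 and 296 CPM. The ephrin receptors EPHB3 (0.9496 against 159.5 CPM) and EPHA2 (49.5 against 269 CPM), the fibroblast growth factor receptor FGFR3 (27.1 against 173 CPM) and the neuregulin receptor ERBB3 (18.9 against 118 CPM) were higher. The other way, the collagen receptor DDR2 stood at 244, 239 and 266 CPM in the EV-labelled and 0.924, 0.801 and 1.64 CPM in the OE-labelled libraries, 223-fold lower in the latter. ROR2, a receptor for WNT5A, stood at 68.6 against 0.02099 CPM, IGF1R at 150.4 against 18.2 CPM and MET at 475 against 209 CPM. EGFR, whose ligands are named next, stood at 194 ± 8.72 against 296 ± 53.8 CPM. Of the receptor tyrosine kinase ligands, 23 of 38 tested members were called higher in the OE-labelled libraries (18 past 2-fold) and 10 lower (8 past 2-fold) (median 0.82). The EGFR ligands AREG (0 against 7.59 CPM), EREG (0 against 10.2 CPM) and TGFA (6.97 against 21.2 CPM) were higher, as was PDGFC (0 against 68.7 CPM), while FGF5 had 46.4, 36.96 and 39.3 CPM in the EV-labelled and no count in any library labelled OE. Of the MAPK feedback and target genes, 21 of 30 tested members were called higher in the OE-labelled libraries (15 past 2-fold) and 6 lower (4 past 2-fold) (median 1.01). CCND1, the cyclin that starts the cell cycle, stood at 121, 121 and 118 CPM against 504, 472 and 487 CPM, 4.06-fold higher. MYC, the growth-promoting factor, stood at 595, 598 and 619.6 CPM against 102, 121 and 121 CPM, 5.27-fold lower. Neither gene's libraries overlapped between the lines.

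The developmental pathways had members on both sides. Of the TGF-beta and BMP pathway genes, 21 of 44 tested members were called higher in the OE-labelled libraries (15 past 2-fold) and 20 lower (18 past 2-fold), with a median log2 fold change of -0.01 and a mean of 0.57. SMAD4, the shared transducer of the pathway, stood at 61.8, 53.2 and 57.6 CPM against 1.17, 1.602 and 1.45 CPM, 40.9-fold lower in the OE-labelled libraries (adjusted p = 3.09e-17). The receptor TGFBR1 (340.0 against 10.8 CPM), the ligand BMP6 (118 against 6.41 CPM) and the inhibitory SMAD6 (83.8 against 8.73 CPM) were lower too, and the latent binding protein LTBP3 (121 against 451 CPM) was higher. Of the WNT pathway genes, 19 of 40 tested members were called higher in the OE-labelled libraries (14 past 2-fold) and 14 lower (11 past 2-fold) (median 0.41). SFRP1, a secreted WNT antagonist, stood at 0.124, 0 and 0 CPM against 589.8, 526 and 575 CPM. WNT5A (122 against 8.58 CPM), LGR4 (155 against 23.1 CPM) and CTNNB1, which encodes beta-catenin (378 against 133 CPM), were lower. Of the NOTCH and Hedgehog genes, 14 of 30 tested members were called higher in the OE-labelled libraries (13 past 2-fold) and 12 lower (10 past 2-fold) (median 0.11), with NOTCH3 at 0.559, 0.433 and 0.493 CPM against 575, 576 and 894 CPM and HEY1, a target of the pathway, at 31.1 against 0.886 CPM. Of the YAP and TEAD targets, 16 of 30 tested members were called higher in the OE-labelled libraries (11 past 2-fold) and 8 lower (5 past 2-fold) (median 0.38). IGFBP3, which binds insulin-like growth factors, stood at 7.84 against 605 CPM and F3, the tissue factor of clotting, at 13.7 against 213 CPM, while YAP1 itself stood at 153 against 147 CPM and was not called. Of the p53 targets, 10 of 33 tested members were called higher in the OE-labelled libraries (7 past 2-fold) and 17 lower (6 past 2-fold), with a median of -0.29 and a mean of 0.28. CDKN1A, which encodes the inhibitor p21, was 6.58-fold higher (11.1 ± 1.87 against 73.2 ± 6.84 CPM), and PLK2 was 4.18-fold lower (530.0 ± 14.004 against 127 ± 2.88 CPM).

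**Figure D3:**
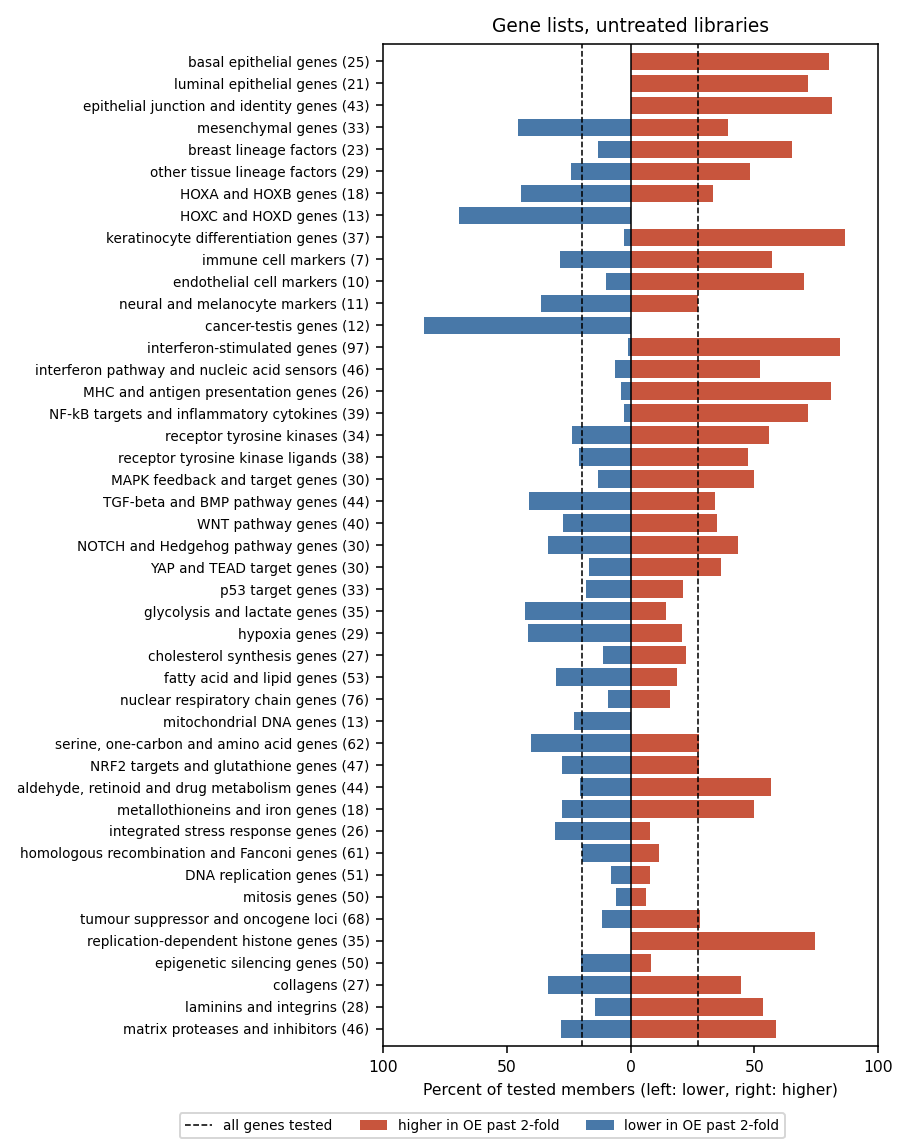
Bars give, for each of the 45 gene lists, the percentage of tested members (number in brackets) called higher (red, to the right) or lower (blue, to the left) past 2-fold in the OE-labelled libraries. Dashed lines mark the shares of all genes tested, 27.2% higher and 19.7% lower.

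Among metabolic genes, single enzymes were present in one line and near 0 in the other. CPS1, the first enzyme of the urea cycle, stood at 3128, 3012 and 3157 CPM in the EV-labelled and at 0.369, 0.246 and 0 CPM in the OE-labelled libraries, with 10 counts in all 3 of the latter (adjusted p = 6.78e-20). OAT, the ornithine aminotransferase that links the urea cycle with proline and glutamate, had no count in any library labelled EV and stood at 350.0, 329.8 and 276 CPM in those labelled OE, at least 5151-fold higher (adjusted p = 1.11e-18). GLUD1, the glutamate dehydrogenase, stood at 177 ± 9.23 CPM in the EV-labelled libraries and had 1 count in the 3 labelled OE. It lies beside the repair gene SHLD2, which is given below and differed the same way. Of the serine, one-carbon and amino acid genes, 20 of 62 tested members were called higher in the OE-labelled libraries (17 past 2-fold) and 34 lower (25 past 2-fold), with a median log2 fold change of -0.48. PHGDH, the first enzyme of serine synthesis, was 3.16-fold lower (1323 ± 104 against 419 ± 58.99 CPM). SLC7A5, which imports large neutral amino acids, was 2.31-fold lower (6329 ± 239 against 2736 ± 333 CPM). CBS (57.9 against 1.26 CPM) and CTH (73.8 against 5.701 CPM), the enzymes that turn homocysteine into cysteine, were lower, while glutamine synthetase (GLUL, 107 against 269 CPM) was higher. NNMT, which methylates nicotinamide, stood at 42.9, 47.3 and 49.03 CPM against 0, 0.123 and 0 CPM. ODC1, of polyamine synthesis, stood at 406 against 137 CPM.

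Of the glycolysis and lactate genes, 9 of 35 tested members were called higher in the OE-labelled libraries (5 past 2-fold) and 20 lower (15 past 2-fold), with a median log2 fold change of -0.42. SLC2A3, a glucose transporter of high affinity, stood at 204, 189 and 225 CPM in the EV-labelled and 0, 0.0616 and 0.06298 CPM in the OE-labelled libraries, whereas the transporter SLC2A1 stood at 182, 174 and 177 CPM against 274, 311 and 351 CPM. Hexokinases present in both lines differed in opposite directions, HK2 at 119 against 54.2 CPM and HK1 at 24.2 against 83.001 CPM. The kinases that hold pyruvate back from the mitochondria, PDK1 (34.8 against 10.2 CPM), PDK3 (96.4 against 14.9 CPM) and PDK4 (55.7 against 0.228 CPM), were lower, and so was PDHA1, a subunit of the enzyme they inhibit (491 against 101 CPM). ALDOA stood at 8.103 against 29.9 CPM and was higher, and LDHA stood at 54.2 against 41.9 CPM and was not called. Both glycolytic genes have processed copies elsewhere, so their levels are uncertain. Of the hypoxia genes, 11 of 29 tested members were called higher in the OE-labelled libraries (6 past 2-fold) and 14 lower (12 past 2-fold) (median -0.21), with HIF1A at 131 against 274 CPM and BNIP3, of mitophagy, at 80.8 against 22.3 CPM. Of the nuclear respiratory chain genes, 24 of 76 tested members were called higher in the OE-labelled libraries (12 past 2-fold) and 18 lower (7 past 2-fold), with a median of 0.08. CYC1, the cytochrome c1 of complex III, stood at 331 against 760.5 CPM, and ATP5F1B, a subunit of ATP synthase, at 1737 against 764 CPM. Of the mitochondrial DNA genes, 1 of 13 tested members were called higher in the OE-labelled libraries (0 past 2-fold) and 8 lower (3 past 2-fold), with a median of -0.62. MT-CO1, of cytochrome oxidase, stood at 25768, 21031 and 23789.8 CPM against 11756, 10994 and 10659.7 CPM. At 12 h and at 24 h, none of the 3 mitochondrial genes past 2-fold passed it again.

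Lipid genes also had called members on both sides. Of the fatty acid and lipid genes, 12 of 53 tested members were called higher in the OE-labelled libraries (10 past 2-fold) and 26 lower (16 past 2-fold), with a median log2 fold change of -0.27 and a mean of 0.06. SCD, the desaturase that makes oleate, was 2.15-fold lower (1236 ± 49.7 against 576 ± 67.04 CPM), while its homologue SCD5 had no count in any library labelled EV and stood at 46.9 ± 3.52 CPM in those labelled OE. PPARGC1A, the coactivator of mitochondrial genes, stood at 32.8, 31.2 and 32.6 CPM in the EV-labelled libraries and had no count in any library labelled OE. ACADM, of fatty acid oxidation, stood at 201 against 29.2 CPM. Of the cholesterol synthesis genes, 13 of 27 tested members were called higher in the OE-labelled libraries (6 past 2-fold) and 8 lower (3 past 2-fold), with a median of 0.37 and a mean of -0.21. The late enzyme DHCR7 was higher (81.03 against 311 CPM).

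Detoxification genes held some of the larger differences. Of the aldehyde, retinoid and drug metabolism genes, 27 of 44 tested members were called higher in the OE-labelled libraries (25 past 2-fold) and 13 lower (9 past 2-fold), with a median log2 fold change of 1.78. RARRES1, a retinoid-responsive gene, stood at 0.373, 0.247 and 0.185 CPM against 477, 477 and 384 CPM. ABCB1, the efflux pump that also carries olaparib, stood at 38.4, 42.8 and 42.002 CPM in the EV-labelled libraries and had no count in any library labelled OE, at least 662-fold lower (adjusted p = 2.77e-14). ABCG2, a further efflux pump, stood at 171, 172 and 171 CPM against 0.431, 0.308 and 0.882 CPM. Of the NRF2 targets and glutathione genes, 18 of 47 tested members were called higher in the OE-labelled libraries (13 past 2-fold) and 21 lower (13 past 2-fold), with a median of -0.17 and a mean of 0.65. The aldo-keto reductases AKR1C1 (0.0824 against 178 CPM), AKR1C2 (0 against 97.97 CPM) and AKR1C3 (0.185 against 64.1 CPM), which are near copies of each other, were higher, and thioredoxin reductase (TXNRD1, 1033 against 186 CPM) and the exporter ABCC2 (313 against 3.46 CPM) were lower. Of the metallothionein and iron genes, 11 of 18 tested members were called higher in the OE-labelled libraries (9 past 2-fold) and 6 lower (5 past 2-fold) (median 0.79), with ceruloplasmin (CP) at 0.3504 against 343 CPM and transferrin (TF) at 0.206 against 110.2 CPM. Of the integrated stress response genes, 5 of 26 tested members were called higher in the OE-labelled libraries (2 past 2-fold) and 16 lower (8 past 2-fold) (median -0.49), with ATF4, its central factor, at 589 against 254 CPM.

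Genes of DNA replication and mitosis differed past 2-fold in smaller shares than all genes tested, both higher and lower. For DNA repair, only the higher share was smaller, with 11.5% higher and 19.7% lower against 27.2% and 19.7% of all genes tested. Of the homologous recombination and Fanconi genes, 16 of 61 tested members were called higher in the OE-labelled libraries (7 past 2-fold) and 27 lower (12 past 2-fold), with a median log2 fold change of -0.15. BRCA2, of homologous recombination, stood at 32.2 ± 5.97 against 66.3 ± 24.1 CPM and was higher. SHLD2, of the shieldin complex that shields broken ends from resection, stood at 87.1, 80.7 and 86.2 CPM in the EV-labelled libraries and had no count in any library labelled OE. SHLD2 lies beside GLUD1 on chromosome 10, in a run of 10 neighbouring genes that were all higher in the EV-labelled libraries. Their differences may therefore not be independent, and copy number there was not tested. FANCI (176 against 51.1 CPM), MRE11 (102 against 27.4 CPM) and LIG3 (81.8 against 24.1 CPM) were lower, and PARP1, the target of olaparib, stood at 612 ± 13.1 against 448 ± 7.67 CPM. Of the DNA replication genes, 15 of 51 tested members were called higher in the OE-labelled libraries (4 past 2-fold) and 22 lower (4 past 2-fold) (median -0.06), with RRM1, of nucleotide supply, at 368 against 94.1 CPM and E2F1 at 68.6 against 187 CPM. Of the mitosis genes, 20 of 50 tested members were called higher in the OE-labelled libraries (3 past 2-fold) and 11 lower (3 past 2-fold) (median 0.13), with MKI67 at 343 against 599 CPM and CDC20 at 160.0 against 434 CPM. Of the tumour suppressor and oncogene loci, 29 of 68 tested members were called higher in the OE-labelled libraries (19 past 2-fold) and 27 lower (8 past 2-fold) (median 0.02). STK11, which encodes the kinase LKB1, stood at 3.04, 2.35 and 2.47 CPM against 116, 191 and 163 CPM, and INPP4B, a phosphatase of the PI3K pathway, had no count in any library labelled EV and was at least 847-fold higher. CDKN2A, of p16 and p14ARF, stood at 171 against 318 CPM.

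Of the replication-dependent histone genes, 26 of 35 tested members were called higher in the OE-labelled libraries (26 past 2-fold) and 0 lower (0 past 2-fold), with a median log2 fold change of 1.89. H2BC12 stood at 24.4, 28.4 and 27.9 CPM against 82.4, 118 and 120.0 CPM and H2AC6 at 20.001, 16.8 and 18.01 CPM against 90.3, 95.3 and 93.4 CPM. Most histone mRNAs lack a poly(A) tail and the genes are near copies of each other, so their reads are uncertain. Of the epigenetic silencing genes, 12 of 50 tested members were called higher in the OE-labelled libraries (4 past 2-fold) and 23 lower (10 past 2-fold) (median -0.17). DNMT1, the maintenance DNA methyltransferase, stood at 416 ± 26.6 against 425 ± 37.8 CPM and was not called. HDAC9, a histone deacetylase, stood at 0.0413 against 48.8 CPM and TRIM28, the corepressor of KRAB zinc finger proteins, at 657 against 1197 CPM, both higher, while CBX2, of Polycomb, was lower (204 against 57.9 CPM).

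Matrix genes had large differences in both directions. Of the laminins and integrins, 17 of 28 tested members were called higher in the OE-labelled libraries (15 past 2-fold) and 7 lower (4 past 2-fold), with a median log2 fold change of 1.21. LAMA1, a laminin chain of embryonic basement membranes, stood at 1624, 1800.2 and 1699.9 CPM in the EV-labelled and 0, 0.185 and 0.315 CPM in the OE-labelled libraries (adjusted p = 1.04e-18). LAMA4 had no count in any library labelled EV and stood at 168, 139 and 156 CPM in the others. Of the collagens, 15 of 27 tested members were called higher in the OE-labelled libraries (12 past 2-fold) and 11 lower (9 past 2-fold) (median 0.91), with COL4A2 at 207 against 72.1 CPM and COL18A1 at 0.908 against 264 CPM. Of the matrix proteases and inhibitors, 28 of 46 tested members were called higher in the OE-labelled libraries (27 past 2-fold) and 14 lower (13 past 2-fold) (median 2.94), with MMP14, a membrane-bound collagenase, at 0.598 against 65.8 CPM, MMP12 at 37.8 against 0 CPM and the inhibitor TIMP3 at 84.9 against 740.4 CPM.

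Along the genome, the difference was uneven. Over the 13820 protein-coding genes tested on chromosomes 1 to 22 and X, 25.8% were higher and 19.2% lower past 2-fold. Chromosome 19 had the largest share of higher genes (398 of 1077, 37.0%), followed by chromosomes 8 (33.6%) and 4 (32.4%). The share of lower genes was largest on chromosome X (183 of 446, 41.03%), followed by chromosomes 10 (38.7%) and 5 (34.3%). The median log2 fold change ran from -0.75 on chromosome X and -0.47 on chromosome 10 to 0.45 on chromosome 20 and 0.58 on chromosome 19. In windows of 41 neighbouring expressed genes, the lowest medians of the log2 ratio (with 0.05 CPM added to each line) were -1.98 on chromosome X (ASB9 to POLA1, 33 of 41 genes lower past 2-fold) and -1.92 on chromosome 1 (ALG6 to NEXN, 34 of 41). Chromosome 5 (MBLAC2 to APC, -1.84) and chromosome 10 (WAPL to SLC35G1, -1.77) followed. DNA copies were not measured, so that whether these stretches differ in copy number was not tested.

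**Figure D4:**
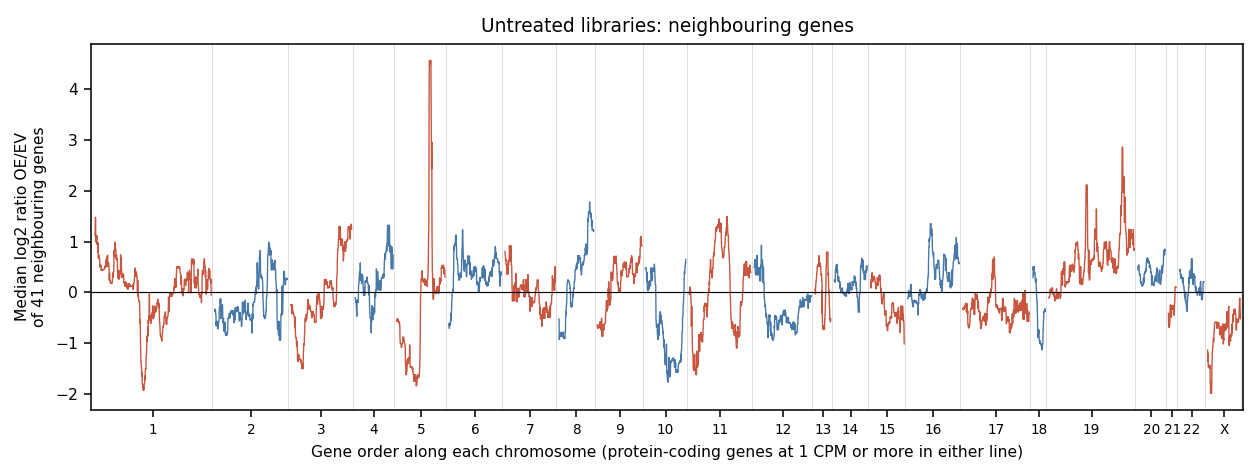
The y axis is the median log2 ratio of OE- to EV-labelled levels over 41 neighbouring protein-coding genes, and the x axis the order of the genes along each chromosome. The highest point, 4.57, lies over the protocadherin clusters of chromosome 5, the highest of chromosome 19, 2.87, between GARIN5A and ZNF611 over kallikrein and zinc finger genes, and the lowest point, -1.98, on chromosome X. Colours only alternate between chromosomes.

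Among protein-coding genes of at least 1 CPM in either line, runs of at least 5 neighbours that all differed at least 4-fold the same way numbered 26 higher in the OE-labelled libraries (173 genes) and 6 higher in the EV-labelled libraries (37 genes). At 2-fold in place of 4-fold, the numbers were 71 and 63. The longest held 15 gamma protocadherins (chr5:141330571-141512981, PCDHGA1 to PCDHGC5), and a run of 9 alpha and beta protocadherins (chr5:140806929-141249365, PCDHA4 to PCDHB15) lay before it. Clustered protocadherins give single neurons their surface identity. All 35 that were tested were higher past 2-fold, and the 52 in the table summed to 0.559, 0.742 and 0.987 CPM in the EV-labelled against 168, 142 and 189 CPM in the OE-labelled libraries. Their variable exons are spliced to shared last exons, so single members are uncertain. On chromosome 19, 6 runs held zinc finger genes, from 10 genes (chr19:19785839-20950697, ZNF506 to ZNF85) and 9 genes (chr19:52336245-52786807, ZNF610 to ZNF600) down to 5 genes (chr19:36714383-36998700, ZNF850 to ZNF568). Many of these genes encode KRAB zinc finger repressors, which arose by duplication and hold down transposable elements. Of 243 zinc finger genes tested on chromosome 19, 127 were higher past 2-fold (52.3%) and 9 lower (3.70%), and of 259 on other chromosomes 71 were higher (27.4%) and 27 lower (10.4%). ZNF528, in the run of 9, stood at 0.124, 0.0618 and 0.3701 CPM against 46.2, 33.4 and 40.2 CPM.

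Runs of epithelial genes joined neighbours of 1 family. They were the keratins of chromosome 17 (chr17:40922696-41624842, KRT23 to KRT17, 8 genes) and of chromosome 12 (chr12:52285913-52814551, KRT81 to KRT4, 6 genes) and the kallikreins of chromosome 19 (chr19:50819148-51028039, KLK1 to KLK11, 7 genes). The 5 genes from TCHH to S100A8 (chr1:152106317-153391188) belong to the epidermal differentiation complex, and TP63 and CLDN1 lay in a run of 8 genes on chromosome 3 (chr3:188947214-192767764, TPRG1 to FGF12). Interferon genes formed runs too, with OAS1, OAS3 and OAS2 in chr12:112906777-113136239 and HLA-C and HLA-B in chr6:31142439-31357188. Of the 6 runs higher in the EV-labelled libraries, 1 held the HOXD genes HOXD11 to HOXD4 (chr2:176104216-176153226) and 1 the MAGEA genes with GABRA3 and CSAG1 (chrX:152166234-152769747).

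A part of the genes was counted in one line only. Among protein-coding genes, 591 had no count in the 3 EV-labelled libraries and at least 1 CPM in those labelled OE, and 115 the reverse. A count of 0 in a line allows up to 3 counts over its libraries, or 0.0619 CPM labelled EV and 0.0620 CPM labelled OE, for counting error alone. Of the 591 genes, 422 also had no count in the 6 EV-labelled libraries of 12 h and 24 h, and of the 115 genes 82 had none in those labelled OE. At 1 CPM or more, 11489 protein-coding genes were expressed labelled EV, 12359 labelled OE and 10871 in both. CpG sites are where promoters can be methylated, so their number was read from the 300-base promoters. It had a median of 27 in 8951 genes expressed in both lines, 20 in 452 genes without a count labelled EV and 15 in 81 without a count labelled OE. At least 20 CpG sites were found in 75.1%, 52.2% and 37.0% of them, against 41.3% of all promoters. Methylation itself was not measured. The promoters of ZNF528 (chr19:52397599-52397898 on the plus strand, 27 CpG sites), OAT (chr10:124418874-124419173 on the minus strand, 33) and DSC3 (chr18:31042693-31042992 on the minus strand, 25) are printed as examples of CpG-rich promoters of genes that were at or near 0 labelled EV, with each CG in capitals (GRCh38.p14, RefSeq).
ZNF528: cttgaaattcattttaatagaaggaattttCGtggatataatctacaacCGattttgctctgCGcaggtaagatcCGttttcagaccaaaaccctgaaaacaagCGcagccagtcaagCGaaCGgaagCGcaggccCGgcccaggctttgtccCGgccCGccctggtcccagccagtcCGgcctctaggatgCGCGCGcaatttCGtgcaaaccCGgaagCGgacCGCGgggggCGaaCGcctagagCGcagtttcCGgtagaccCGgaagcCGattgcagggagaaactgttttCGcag
OAT: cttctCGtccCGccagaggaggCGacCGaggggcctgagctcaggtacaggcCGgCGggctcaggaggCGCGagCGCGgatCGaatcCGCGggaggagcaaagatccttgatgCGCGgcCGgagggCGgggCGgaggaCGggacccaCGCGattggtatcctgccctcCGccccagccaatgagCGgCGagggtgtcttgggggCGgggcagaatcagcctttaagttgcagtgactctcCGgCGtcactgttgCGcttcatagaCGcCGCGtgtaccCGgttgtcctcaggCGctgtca
DSC3: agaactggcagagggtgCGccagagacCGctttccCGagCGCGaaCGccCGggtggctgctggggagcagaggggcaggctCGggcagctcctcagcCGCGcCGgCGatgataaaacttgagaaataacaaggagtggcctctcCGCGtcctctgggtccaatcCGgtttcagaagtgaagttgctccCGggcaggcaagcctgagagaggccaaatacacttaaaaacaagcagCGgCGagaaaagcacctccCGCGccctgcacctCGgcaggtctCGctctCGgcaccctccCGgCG

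The 12 h and 24 h libraries are other libraries of the same lines, and 1 fit of all 18 libraries served every comparison, so they are no independent repeat. They gave the same contrast between the lines under olaparib. There, 8561 genes (46.7%) were called past 2-fold at 12 h and 8771 (47.8%) at 24 h. Of the 4979 genes higher past 2-fold without treatment, 4389 (88.2%) were so again at 12 h and 4209 (84.5%) at 24 h, and of the 3617 lower ones 3017 (83.4%) and 2766 (76.5%). Calls past 2-fold the opposite way were 1 and 1 gene at 12 h and 10 and 3 genes at 24 h. For the interferon-stimulated genes, 83 of the 83 past 2-fold were so again at both times, and for the epithelial junction and identity genes 35 of 35 at 12 h and 34 at 24 h.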

How the data were processed

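The titles gave each library's cell line and time, and no label names a batch. RNA was taken with TRIzol and turned into libraries with NEBNext Ultra II reagents by the authors, who aligned the reads and deposited whole-number counts per gene without normalization. The submitters' processing notes name HISAT2, featureCounts, DESeq2, GRCh38 and hg38. Annotation, strand setting and the handling of shared reads are not given in the sources used here. The joint table lists 35044 genes, and all 18 single-library tables equalled their columns. Symbols matched 34966 identifiers. Gene types and positions (33888 identifiers) came from GENCODE release 29.

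Counts were normalized with TMM and filtered with filterByExpr, which left 18335 genes. They were tested with edgeR 4.0.16 (R 4.3.3) by quasi-likelihood over 18 libraries, with one mean for each of 6 conditions, and p-values were adjusted by Benjamini-Hochberg over all genes, with calls under 0.05. The script was tested on simulated data. The study's text gives no model. An exact permutation test of 3 against 3 libraries cannot go below p = 0.1. Levels are TMM-scaled CPM, as mean ± SD over 3 libraries. Folds against a line without a count were set against 3 counts over its libraries. No pair of replicates agreed within sampling noise.

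Named genes were BRCA1, RB1 and IRF3; the 12 protein-coding genes each way of largest log2 fold change among those called, with at least 20 CPM in the higher line and no overlap; the 10 nuclear protein-coding genes each way of largest CPM difference past 2-fold; members of 45 lists; and genes of runs. Genes of chromosome Y and XIST were left out, and some genes that the rule names are not reported here. Members and lists were chosen with earlier results of these data known. Protocadherin, zinc finger and ribosomal families, the motifs and the printed sequences were chosen after values were seen. Motif windows were limited to list members called higher past 2-fold, and not every such member was eligible. Alternatives were DESeq2 1.42.0, other scalings, filters, fewer libraries and a replicate block.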

Additional observations from a re-analysis of the deposited data

How the results depend on the processing

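Called genes numbered 12866 to 13446 when 1 untreated library was left out, and those past 2-fold 8560 to 8872. With at least 10 counts required in every untreated library, which removes the genes without a count in one line, 12504 genes were tested. Then 4537 were called higher, and past 2-fold 4225 were called, 2171 higher and 2054 lower. DESeq2's size factors, library size alone, the upper quartile, DESeq2's Wald test, no filter and the untreated libraries alone kept each count of calls within 1.5 times. The share of calls that were higher moved from 54.3% to between 50.5% and 55.8%, and the median log2 fold change of all genes from 0.11 to between 0.01 and 0.15. Genes without a count numbered 821 labelled EV and 221 labelled OE over all gene types, 402 and 96 at 5 CPM or more in the other line, and 335 labelled OE when up to 3 counts were allowed. The highest window median was 6.92 over 21 genes and 1.83 over 81. At 2-fold, 71 runs were higher in the OE-labelled and 63 in the EV-labelled libraries.

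Same-numbered untreated libraries correlated in their deviations with r of 0.12, 0.0018 and 0.016, so the numbers were not taken to pair the samples. With the replicate block, 13334 genes were called, 8589 of them past 2-fold. Of the 617 fold changes of named genes under the alternatives, 602 kept direction and call and none turned. The other 15 were BRCA1, called in 6, and RB1, not called in 9. Of 1260 list counts, 1211 stayed within 1.5 times. Where at least 10 counts were required in every untreated library, interferon-stimulated genes called higher fell from 87 to 52. Basal epithelial genes fell from 21 to 11, epithelial junction and identity genes from 37 to 17 and keratinocyte differentiation genes from 35 to 10. Luminal epithelial genes, from 19 to 13, stayed within 1.5 times. Cancer-testis genes called lower fell from 10 to 0. This filter removes every gene with fewer than 10 counts in any untreated library, so members near 0 in one line were not tested there. Of the 12 cancer-testis genes tested in the main fit, 10 had no count labelled OE. For the other lists, how many of the lost calls were of removed members was not counted.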

Other observations

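Long non-coding genes were not described above. Of 2740 tested, 950 (34.7%) were higher and 570 (20.8%) lower in the OE-labelled libraries past 2-fold. UCA1, a transcript first described in urothelial carcinoma, had no count labelled EV and stood at 198 CPM labelled OE. MIR205HG, the host gene of the epithelial microRNA miR-205, had none labelled EV and stood at 92.7 CPM labelled OE. SNHG14, the imprinted transcript of the Prader-Willi region, stood at 0.268 against 93.9 CPM. The other way, LINC00958 stood at 134 against 0.0410 CPM and NUTM2A-AS1 at 38.5 against 0.0415 CPM. SNHG16, a host of small nucleolar RNAs, stood at 131 against 25.9 CPM. Antisense genes can hold reads of their partners, since the strand setting is not given. These genes were chosen after their values were seen.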
